A study of Mus musculus with 6 samples.

Results

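Rerg, Prdm12, Ankrd34b, Spock3 and Crispld1 are 5 protein-coding genes that were lower in piriform cortex given a virus for caspase 3 than in cortex given a virus for GFP. They were selected on that same comparison: each lay among the 19 genes that were lower at an adjusted p under 0.05, out of 16721 genes tested and 53715 in the table. Their fold changes and calls are therefore given as a description and support nothing. The working name of the set calls them neuronal, but bulk RNA cannot assign a transcript to a cell type, and fewer cells of a type and less RNA per cell cannot be told apart.

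Bulk poly(A) RNA was sequenced from the piriform cortex, the largest cortical area for smell, of Gad2-Cre mice, in 3 libraries per group. In these mice Cre recombinase is made where the Gad2 gene, which encodes a GABA-synthesising enzyme, is active, and every library of either group carried the driver. The Caspase3 group had received AAV-DIO-Caspase3, a Cre-dependent virus for a protease that carries out apoptosis, and the GFP group AAV-DIO-GFP, each by stereotaxic injection into the piriform cortex of 1 side. The labels give no age, sex, dose or interval after injection and do not say which side was sampled. Nor do they say whether each library is 1 animal, so the p-values reflect only how far these 6 libraries scatter, part of which may be technical.

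The 5 genes encode proteins with unlike functions. Rerg is a small Ras-like GTPase known as an oestrogen-regulated growth inhibitor. Prdm12 is a PR-domain zinc-finger regulator of transcription, known for its role in the development of pain-sensing neurons, which acts with the histone methyltransferase Ehmt2 (G9a). Ankrd34b is an ankyrin-repeat protein whose function is little characterised. Spock3 (testican-3) is a secreted proteoglycan of brain extracellular matrix that restrains the activation of matrix metalloproteinases. Crispld1 is a secreted protein of the CAP superfamily that also carries LCCL domains.

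The genes lie on 5 chromosomes of GRCm38, and their deposited bounds equal those of GENCODE M21. Rerg (ENSMUSG00000030222) lies at chr6:137054825-137170497 on the minus strand, with 5 annotated transcripts and 5 exons in the longest. Prdm12 (ENSMUSG00000079466) lies at chr2:31640037-31655795 on the plus strand, with 1 transcript of 5 exons. Ankrd34b (ENSMUSG00000045034) lies at chr13:92425896-92441658 on the plus strand, with 3 transcripts and 5 exons in the longest. Spock3 (ENSMUSG00000054162) lies at chr8:62951009-63357103 on the plus strand and spans 406.1 kb, with 6 transcripts and 12 exons in the longest. Crispld1 (ENSMUSG00000025776) lies at chr1:17727045-17766344 on the plus strand, with 3 transcripts and 15 exons in the longest. The exons of Crispld1, Prdm12 and Ankrd34b share 548, 200 and 88 bases with the antisense genes Gm16070, Gm13425 and C030017D09Rik. These antisense genes held 74, 31 and 9 counts in all 6 libraries together, and reads in the shared bases could belong to either gene, since whether counting used strand is not stated in the sources.

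RefSeq's promoter table (GRCm38.p6) held entries for 3 of the 5 genes, Prdm12, Ankrd34b and Spock3. The stretches just upstream of Prdm12 and Ankrd34b are shown because, of these entries, they hold at least 100 bases outside annotated exons. They are written 5′ to 3′ on the plus strand, at chr2:31639787-31640036 (250 bases) and chr13:92425719-92425895 (177 bases). Capitals mark matches to the GC box GGGCGG on either strand and to the E-box CAGCTG.
Prdm12: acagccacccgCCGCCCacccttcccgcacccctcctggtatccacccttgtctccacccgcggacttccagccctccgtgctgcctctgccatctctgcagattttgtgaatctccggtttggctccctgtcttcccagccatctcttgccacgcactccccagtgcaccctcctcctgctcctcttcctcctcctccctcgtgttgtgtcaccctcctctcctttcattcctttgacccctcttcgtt
Ankrd34b: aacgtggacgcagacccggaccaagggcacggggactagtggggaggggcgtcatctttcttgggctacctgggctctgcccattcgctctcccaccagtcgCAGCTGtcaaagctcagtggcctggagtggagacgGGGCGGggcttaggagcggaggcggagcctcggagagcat

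Both stretches were rich in G and C. The Prdm12 stretch had a GC content of 61.2% and 10 CpG dinucleotides, against medians of 52.4% and 6 over the same window of all 32851 promoters. The Ankrd34b stretch had 65.5% and 12 CpG, against 51.4% and 3 over its own window. The GC box began 239 bases before the RefSeq start site of Prdm12 (chr2:31640037) and 113 bases before that of Ankrd34b (chr13:92425969). In these windows 32.7% and 20.6% of all promoters hold it. The 73 bases between the printed Ankrd34b stretch and its RefSeq start site are annotated exon. The E-box stood only in the Ankrd34b stretch, 148 bases before the start site, where 9.05% of promoters hold it. Searches of both strands for the homeobox core TAATTA, the cAMP response element TGACGTCA and the TATA box TATAAA found no match in either stretch. Of all promoters, 4.84%, 1.55% and 12.4% hold these letters in the Prdm12 window, and 3.81%, 0.569% and 8.26% in the Ankrd34b window. The searched motifs do not overlap each other in these stretches, and a match is a description of letters, not a site in use.

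Levels per transcript length were compared first, in the deposited FPKM of the GFP libraries, which scale counts by gene length and library size. Spock3 was the most abundant, at 28.99 ± 1.92 FPKM (SD, n = 3), above 91.4% of tested genes. Ankrd34b followed at 5.39 ± 0.58 FPKM (SD, n = 3), above 59.7%. Crispld1, at 2.99 ± 0.20 FPKM, and Rerg, at 2.36 ± 0.99 FPKM (SD, n = 3 each), overlapped, with ranges of 2.83 to 3.21 and 1.69 to 3.49 FPKM. Prdm12 was lowest, at 0.264 ± 0.0819 FPKM (SD, n = 3), above 7.7% of tested genes. The set thus ran from one of the more abundant messages of this tissue to a barely detected one. In the Caspase3 libraries the order was the same, with means of 19.7, 3.14, 1.83, 0.789 and 0.0229 FPKM, and there the ranges of Crispld1 (1.69 to 2.0) and Rerg (0.673 to 1.01) no longer overlapped.

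All 5 genes passed as lower in edgeR's quasi-likelihood test, in a table where 0.114% of tested genes did so. In each of them all 3 Caspase3 libraries lay below all 3 GFP libraries, which held for 6.29% of tested genes. Nothing is read from either count, since the genes were chosen by this comparison. Levels below are CPM, counts scaled to library totals and TMM factors.

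Spock3 stood at 116.8, 127.8 and 115.8 CPM in the Caspase3 libraries 1, 2 and 3 and at 182.6, 161.1 and 182.8 CPM in the GFP libraries. The libraries within a group lay close together, and the lowest GFP library was 1.26 times the highest Caspase3 library. The group means were 120.1 ± 6.68 and 175.5 ± 12.5 CPM (SD, n = 3 each), a log2 fold change of -0.55 ± 0.09 (SE), or 1.46-fold lower (edgeR adjusted p = 0.0239). Its 8212 Caspase3 and 12147 GFP counts put the ratio of pooled levels, GFP over Caspase3, at 1.46, with a 95% counting interval of 1.42 to 1.5.

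Ankrd34b stood at 16.4, 15.1 and 13.8 CPM in the Caspase3 libraries and at 22.5, 26.9 and 27.5 CPM in the GFP libraries. The groups did not overlap, and GFP 1 was the lowest of its group. The means were 15.1 ± 1.29 and 25.6 ± 2.74 CPM (SD, n = 3 each), a log2 fold change of -0.77 ± 0.12 (SE), or 1.70-fold lower (edgeR adjusted p = 0.0178).

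Crispld1 stood at 8.29, 9.05 and 7.69 CPM in the Caspase3 libraries and at 14.5, 12.7 and 13.2 CPM in the GFP libraries. All GFP libraries were higher, by at least 1.41 times. The means were 8.35 ± 0.68 and 13.5 ± 0.94 CPM (SD, n = 3 each), a log2 fold change of -0.69 ± 0.13 (SE), or 1.62-fold lower (edgeR adjusted p = 0.0341). The overlapping antisense gene Gm16070 had 0.519 and 0.564 CPM and a log2 fold change of -0.13 (adjusted p = 0.933).

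Rerg stood at 1.90, 2.77 and 1.85 CPM in the Caspase3 libraries and at 4.61, 5.15 and 9.58 CPM in the GFP libraries. GFP 3 stood apart, at 1.96 times the mean of GFP 1 and 2, and the groups did not overlap with or without it. The means were 2.17 ± 0.52 and 6.45 ± 2.72 CPM (SD, n = 3 each), a log2 fold change of -1.57 ± 0.31 (SE), or 2.96-fold lower (edgeR adjusted p = 0.0463). Without GFP 3 the log2 fold change was -1.18 and the adjusted p was 0.0825.

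Prdm12 had 1, 1 and 2 counts in the Caspase3 libraries and 13, 12 and 20 counts in the GFP libraries. These were 0.0474, 0.0455 and 0.0789 CPM against 0.606, 0.475 and 0.879 CPM. Every Caspase3 library was under the level of 3 counts, which was 0.118 to 0.142 CPM per library, so the gene was at the limit of detection there. The exact 95% counting intervals of the Caspase3 libraries together ran from 0.00115 to 0.285 CPM and those of the GFP libraries from 0.246 to 1.36 CPM, which overlap. Pooled, 4 against 45 counts put GFP at 11.1 times Caspase3, with a 95% counting interval of 4.04 to 42.4. The fitted log2 fold change of -3.36 ± 0.55 (SE; edgeR adjusted p = 0.0178) rests on these 4 Caspase3 counts. How far it depends on the prior count of the fit was not tested. Intervals and the limit cover counting error only. Prdm12 passed the filter on low counts only through the GFP libraries, where it was high. Its call and its place among the lower genes therefore support nothing.

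**Figure D1:**
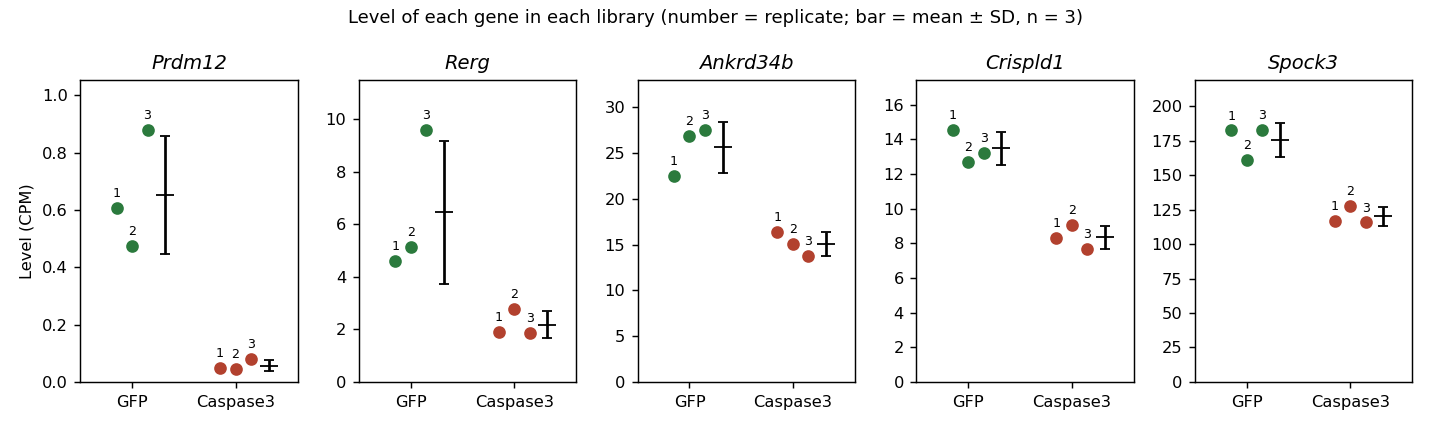
Level in CPM (vertical axis, linear, from 0) of each gene in each library, with GFP libraries in green and Caspase3 libraries in red; numbers are replicates and bars are the mean ± SD (n = 3). In every panel the Caspase3 points lie below the GFP points, and GFP 3 stands apart for Rerg, at 9.58 CPM.

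The 5 genes differed in how much GFP libraries varied among themselves. GFP 3 was 1.96 times the mean of GFP 1 and 2 for Rerg and 1.63 times for Prdm12, against 1.12 for Ankrd34b, 1.06 for Spock3 and 0.97 for Crispld1. The coefficient of variation of Rerg was 42.3% in the GFP group and 23.9% in the Caspase3 group. GFP 3 also had the highest level of 12 marker genes of striatal projection neurons, which summed to 1697 CPM there, 548.2 and 430.6 CPM in GFP 1 and 2, and 411 to 428.9 CPM in the Caspase3 libraries. None of these 12 passed the edgeR test in either direction (7 at an unadjusted p under 0.05, against 10.6% of all tested genes). All 12 had negative log2 fold changes, with a median of -1.50, where 50.2% of all tested genes were negative. Their part in the Rerg and Prdm12 values was not tested. Across the 6 libraries the 5 genes rose and fell together in log2 CPM, with Pearson r of 0.88 to 0.99 between pairs, a description that rests mainly on the split between the 2 groups they were chosen by.

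Among the 19 lower genes, ordered by log2 fold change, the 5 fell at both ends. Prdm12 had the lowest value, ahead of Kcns3, a potassium channel subunit (-1.70), and of Gad2 itself (-1.60). Rerg followed Gad2 and preceded Apold1, an early response gene of blood vessel endothelium (-1.17). Ankrd34b and Crispld1 stood toward the other end, on either side of Gabrg3, a GABA-A receptor subunit (-0.76), with Dusp5, a MAP kinase phosphatase (-0.77), just ahead of Ankrd34b. Spock3 stood between AI593442 (-0.63) and Shisa9, an auxiliary subunit of AMPA receptors (-0.50), which had the value nearest 0. By adjusted p, Dusp5 (0.0471) and the immediate early gene Nr4a1 (0.0472) lay just inside the threshold, after Rerg. Klhl13 (log2 fold change -0.61, adjusted p = 0.0528) and Xlr3b (-1.56, 0.0540) lay just outside.

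**Figure D2:**
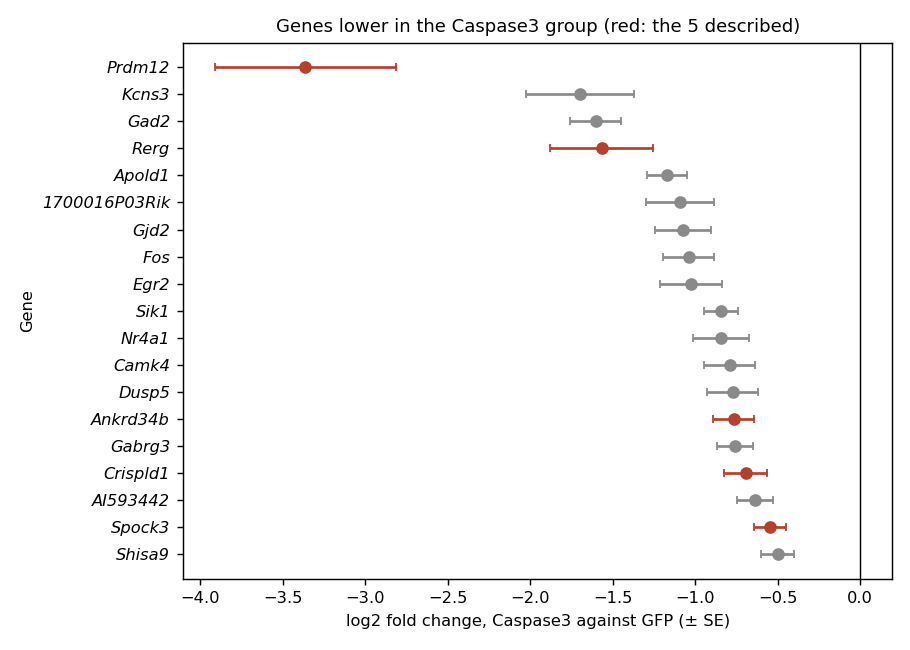
Log2 fold change, Caspase3 against GFP, with its SE (horizontal axis), of the 19 genes lower at an adjusted p under 0.05, ordered by value, with the 5 described genes in red and the others in grey. Prdm12 (-3.36) has the lowest value and Spock3 (-0.55) is next to last.

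The Gad2 message checks the labels of the 2 groups. It stood at 26.7, 38.5 and 38.0 CPM in the Caspase3 libraries and at 92.4, 118.0 and 103.7 CPM in the GFP libraries, so the groups were far apart. Its log2 fold change was -1.60 ± 0.15 (SE; edgeR adjusted p = 0.00371). The level of each gene was divided by that of Gad2 in the same library, which shows whether a gene changed more or less than Gad2. For Ankrd34b, Spock3 and Crispld1 the ratio was higher in the Caspase3 group, by 0.86, 1.07 and 0.92 on the log2 scale, and in each of them all 3 Caspase3 libraries lay above all 3 GFP libraries. These messages thus changed less than Gad2. A message that did not change at all would also have a higher ratio, since Gad2 itself was lower. The median log2 fold change of all tested genes was -0.001. The share of all tested genes with such a ratio was not computed, so nothing particular to these genes is read from it. For Rerg the mean log2 ratio was -3.99 ± 0.32 in the Caspase3 group and -4.09 ± 0.58 in the GFP group (SD, n = 3 each), with overlapping libraries, a difference of 0.10 that is smaller than either SD. For Prdm12 the ratio was lower, by 1.90 on the log2 scale, with no overlap, though it rests on 4 Caspase3 counts. These ratios are descriptions, since Gad2 and the 5 genes were all among the 19 lower genes.

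**Figure D3:**
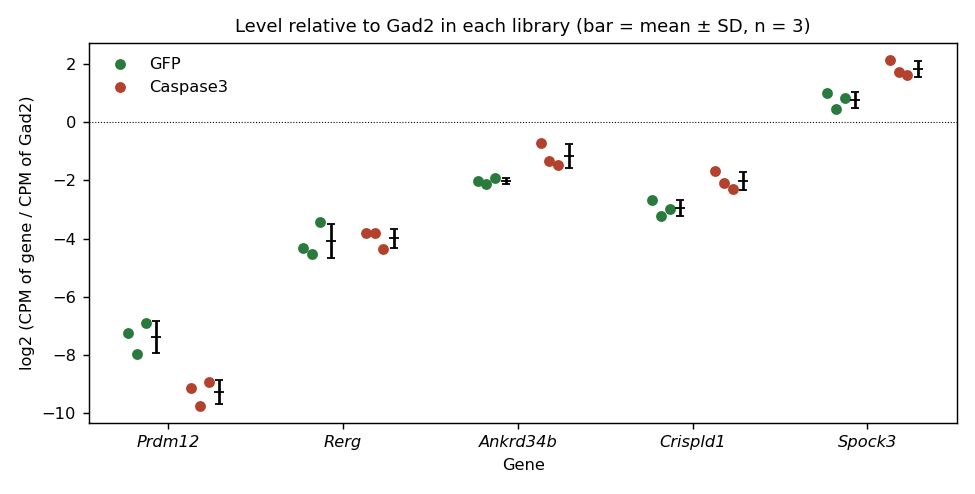
Log2 ratio of each gene's CPM to that of Gad2 in the same library (vertical axis), GFP in green and Caspase3 in red, with the mean ± SD (n = 3). The Caspase3 points lie above the GFP points for Ankrd34b, Crispld1 and Spock3, overlap them for Rerg and lie below them for Prdm12.

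Markers of cell types moved beside these genes to different extents. Of all 16721 tested genes, 0.114% were lower past the test, 50.2% had a negative log2 fold change and 10.6% had an unadjusted p under 0.05, and the marker counts are to be read beside these shares. The 12 markers of GABAergic neurons had a median log2 fold change of -1.09, with all 12 negative and only Gad2 past the edgeR test (10 at an unadjusted p under 0.05). They summed to 444.4, 703.5 and 456 CPM in the Caspase3 libraries and to 808.5, 1017 and 1142 CPM in the GFP libraries. Within the Caspase3 group the sum was highest in Caspase3 2, as were Rerg, Spock3 and Crispld1, while Ankrd34b was highest in Caspase3 1 and Prdm12 in Caspase3 3. Within the GFP group the sum was highest in GFP 3, as were all of the set but Crispld1, which was highest in GFP 1. Several of these orders are not resolved by the counts. Spock3 had 182.8 CPM in GFP 3 and 182.6 CPM in GFP 1, and Ankrd34b 27.5 CPM in GFP 3 and 26.9 CPM in GFP 2. Prdm12 had 2 counts in Caspase3 3 and 1 count in each of Caspase3 1 and 2. Of 11 tested markers of interneuron classes none passed in edgeR (2 at an unadjusted p under 0.05, median -0.47), nor did any of 12 markers of glutamatergic cortical neurons (1, median 0.005) or of 7 markers of claustrum and endopiriform neurons (4, median -0.51). The 10 general neuronal markers had a median of -0.20, with none past the test (1 at an unadjusted p under 0.05), and summed to 8671 to 10170 CPM in the Caspase3 group and 9415 to 12380 CPM in the GFP group. Of 8 microglial markers, 6 rose and none fell (median 0.88, summed 473 to 641.8 against 298.3 to 349.3 CPM), where 1.53% of all tested genes rose. Of 8 astrocyte markers, 1 rose, Gfap, while oligodendrocyte and endothelial markers held no passing gene among 8 each (1 and 0 at an unadjusted p under 0.05). The 11 hypothalamic markers, Pomc among them, were too low to test, at 24 to 32 summed counts per library, and 1 had no count at all. The part of these marker levels in the fall of the 5 genes was not tested. The glutamatergic cortical markers summed to 3660 to 4287 CPM in every library, of which Camk2a alone held 2149 to 2690 CPM. These messages were thus present in every library, but a sum that rests mostly on 1 gene does not check the tissue label.

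The calls of the 5 genes changed when libraries were left out, while their direction did not. All 5 log2 fold changes stayed negative in each of 17 alternative analyses. When 1 library was left out at a time, between 0 and 2 of the 5 genes stayed past the threshold. Spock3 passed without Caspase3 1 or 2, Ankrd34b without Caspase3 1 or GFP 1, Rerg without GFP 1, and Prdm12 and Crispld1 in none of these 6 fits. None passed without Caspase3 3, without GFP 2 or without GFP 3. With 1 library left out, the log2 fold changes lay between -0.60 and -0.52 for Spock3, -0.85 and -0.72 for Ankrd34b, -0.76 and -0.64 for Crispld1, -3.67 and -3.10 for Prdm12, and -1.78 and -1.18 for Rerg. Over these fits the adjusted p reached 0.128, 0.104, 0.143, 0.0747 and 0.171 in the same order. Without both Caspase3 1 and GFP 3, Ankrd34b alone passed. Gad2 stayed past the threshold in all 17 alternatives, with adjusted p of at most 0.0494.

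**Figure D4:**
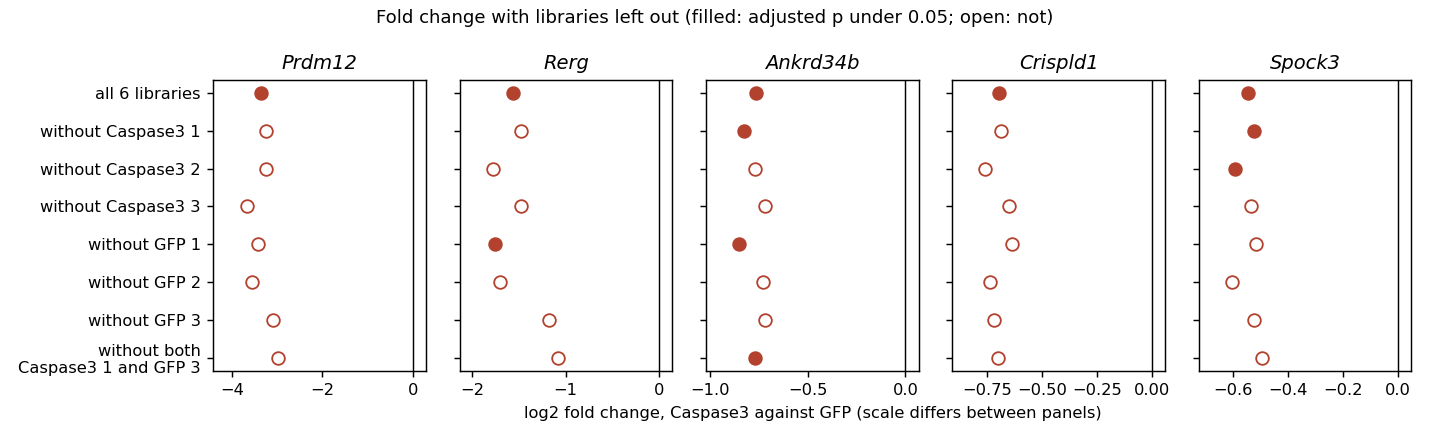
Log2 fold change, Caspase3 against GFP, of each gene (horizontal axis, scale differs between panels) with all 6 libraries and with the named libraries left out; filled points have an adjusted p under 0.05 and open points do not. Every point is below 0, most are open, and the Rerg value moves nearest to 0 where GFP 3 is left out.

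Other tools placed the 5 genes differently. DESeq2 called all 5, with adjusted p of 8.93e-05 for Rerg, 0.0212 for Prdm12, 5.55e-05 for Ankrd34b, 0.000151 for Spock3 and 0.00313 for Crispld1. Limma-voom called 4, leaving out Rerg. Scaling to library totals called 3, with Rerg and Crispld1 both at 0.0517. Limma on log2(FPKM + 0.1) called 3 and on log2(FPKM + 1) called 2, Spock3 and Ankrd34b. The size of the Prdm12 value depended on the scale. Its log2 fold change was -3.50 in DESeq2, -1.54 on log2(FPKM + 0.1) and -0.30 on log2(FPKM + 1).

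Family relatives and partners of the 5 genes, 110 genes in 8 lists, were examined next. The lists were drawn up with earlier results of these data known. A relative lower past the test could itself have been taken into the set, so the count of lower relatives supports nothing. Of the 110 genes, 86 could be tested, and of these 1 rose and 0 fell in edgeR, against 1.53% and 0.114% of all tested genes. At an unadjusted p under 0.05 there were 18 (20.9%, 7 of them lower), against 10.6% of all tested genes, and their median log2 fold change was -0.06 against -0.001 for all. DESeq2 also called 1 higher and 0 lower, and limma-voom 0 in either direction.

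The testicans closest to Spock3 were expressed as strongly but did not pass the test. Spock1, at 25.1 ± 3.14 FPKM in the GFP group (SD, n = 3), had 209.7 ± 25.1 CPM there and 181.2 ± 9.53 CPM in the Caspase3 group (log2 fold change -0.21 ± 0.11, SE; edgeR adjusted p = 0.555). Spock2, at 140.6 ± 4.93 FPKM, had 778.5 and 776.5 CPM, a log2 fold change of -0.004 ± 0.11 (adjusted p = 0.995). The differences between these values and that of Spock3 were not tested. In the wider SPARC family of 9 tested genes, which bind calcium and matrix proteins, Smoc2 rose from 4.19, 4.28 and 4.0 CPM in the GFP libraries to 6.68, 11.6 and 11 CPM in the Caspase3 libraries. All Caspase3 libraries were higher, with a log2 fold change of 1.23 ± 0.22 (SE; edgeR adjusted p = 0.0252). Smoc2 also passed without Caspase3 1 (0.00218) but missed the threshold without any other library (adjusted p = 0.0728 to 0.123). The most abundant family member, Sparcl1, had a log2 fold change of 0.01 (adjusted p = 0.986).

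The list of matrix metalloproteinases, their inhibitors and the cysteine protease Ctsl, enzymes that testicans act on or with, held no passing gene among 12 tested (5 at an unadjusted p under 0.05, median log2 fold change 0.03). These 5 were Mmp2, Mmp14, Timp2 and Ctsl, with positive values, and the membrane-type enzyme Mmp24, with a negative one. Ctsl had a log2 fold change of 0.38 (edgeR adjusted p = 0.182) and Mmp24 one of -0.25 (0.422). Mmp2, a gelatinase, stood at 3.59 ± 0.33 against 1.98 ± 0.23 CPM in GFP (SD, n = 3 each; log2 fold change 0.86, edgeR adjusted p = 0.0999). Its membrane-bound activator Mmp14 had 16.6 ± 4.31 against 11 ± 2.96 CPM (0.59, 0.390), and the related membrane-type enzyme Mmp16 had a value of -0.007 (adjusted p = 0.995). The inhibitor Timp2, the most abundant of the list, had 293.9 ± 36.5 against 227.3 ± 20.5 CPM (0.37, 0.287).

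Ankrd34b has the close relatives Ankrd34a and Ankrd34c, which had log2 fold changes of -0.02 and -0.13 (edgeR adjusted p = 0.979 and 0.881). Ankrd34c had 5.29 ± 1.62 FPKM in the GFP group, near the 5.39 ± 0.58 FPKM of Ankrd34b, and Ankrd34a had 11.5 ± 0.77 FPKM (SD, n = 3 each). In the list of 18 neuronal ankyrin-repeat genes none passed in edgeR (3 at an unadjusted p under 0.05). All 18 values were negative, with a median of -0.13, where 50.2% of all tested genes were negative. With scaling to library totals, which moved the median of all tested genes to 0.06, 15 of the 18 were negative. The lowest value was that of Ankrd55, at -1.12 (adjusted p = 0.291), and the most abundant gene, Ank2, which anchors channels to the membrane skeleton, had -0.06 (0.902).

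Among 17 tested Ras-like GTPases related to Rerg none passed in edgeR (6 at an unadjusted p under 0.05), with 10 negative and a median of -0.16. Of those 6, Rasl10a, Rrad and Rem1 had positive log2 fold changes (0.56, 0.86 and 1.15) and Rit2, Rasd2 and Rem2 negative ones (-0.25, -0.66 and -2.18). Rem2, which regulates calcium channels, had 1.17, 0.317 and 4.04 CPM in the GFP libraries and 0.474, 0.546 and 0.197 CPM in the Caspase3 libraries. Rasd2, a GTPase abundant in striatum, had 64.2, 59.0 and 135.9 CPM against 64.7, 46.7 and 52.7 CPM. In both genes GFP 3 was the highest library, as it was for Rerg, and the groups overlapped (adjusted p = 0.369 and 0.466). Rasl10b, the most abundant, had a log2 fold change of -0.27 (0.673) and Rit1 0.11 (0.780). Of 8 tested oestrogen response genes and cofactors none passed in edgeR and none had an unadjusted p under 0.05. Pgr, the progesterone receptor, had 30.9 ± 4.94 against 39.3 ± 6.78 CPM (SD, n = 3 each; log2 fold change -0.34, adjusted p = 0.483), and the coactivator Ncoa1, the most abundant, had -0.12 (0.702).

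Of 14 tested relatives of Prdm12 in the PRDM family none passed in edgeR (2 at an unadjusted p under 0.05, median 0.01). Prdm2, the most abundant, stood at 78.4 ± 0.65 against 77.7 ± 0.70 CPM (SD, n = 3 each; log2 fold change 0.01, adjusted p = 0.971). Prdm8, which acts in cortical projection neurons, had 6.17 ± 0.86 against 9.20 ± 3.85 CPM (-0.58, 0.506). Ehmt2, the partner of Prdm12, had 92.2 ± 2.25 against 90.4 ± 11.7 CPM (0.03, 0.948), and none of 5 tested genes of its list passed or had an unadjusted p under 0.05. The other 8 genes of that list were too low to test. Of the CAP superfamily only 3 of 13 genes could be tested, 7 having no count in any library, and none passed (1 at an unadjusted p under 0.05). Crispld2, the nearest relative of Crispld1, had 3.54 ± 1.05 against 2.23 ± 0.25 CPM (log2 fold change 0.67, adjusted p = 0.387), opposite in sign to Crispld1 but not past the test. Glipr2, the most abundant of the 3, had 0.37 (0.553).

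**Figure D5:**
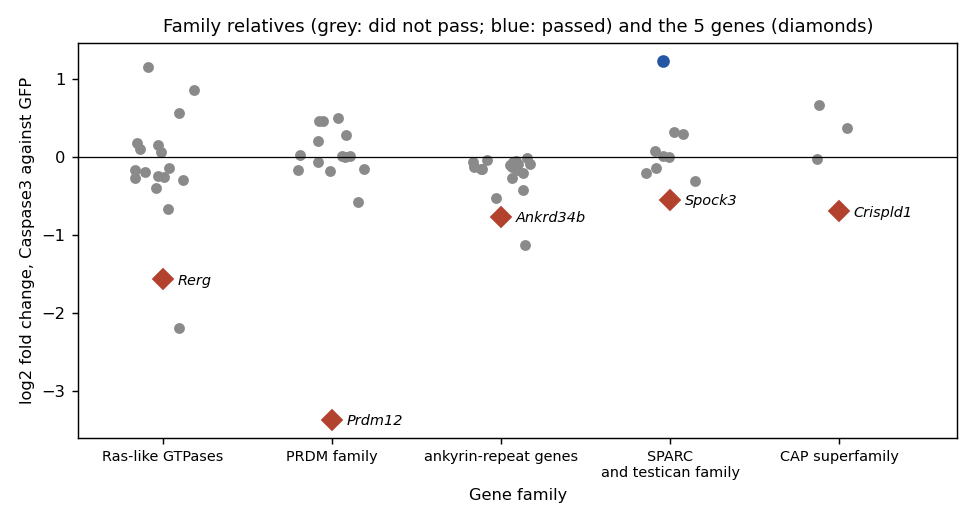
Log2 fold change, Caspase3 against GFP (vertical axis), of tested relatives in 5 families (circles, grey where the adjusted p was 0.05 or more and blue where it was lower) beside the gene of the set in each family (red diamonds). Smoc2, at 1.23, is the blue point, and all 18 ankyrin-repeat relatives lie below 0.

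Genes beside the 5 on their chromosomes were compared within 500 kb. Of all tested genes 1.53% were higher and 0.114% lower past the test. With so few neighbours, nothing about these regions is read from the counts below. Rerg had 8 tested neighbours, of which 1 rose, Arhgdib, a gene abundant in blood cells. It stood at 7.56 ± 1.44 against 4.0 ± 0.21 CPM (SD, n = 3 each; log2 fold change 0.91 ± 0.18, SE; edgeR adjusted p = 0.0425), and missed the threshold without any one library (0.0598 to 0.152). The nearest to Rerg, Ptpro, a receptor-type phosphatase 81.8 kb away, had 0.22 (0.767). Of the 15 neighbours of Prdm12, the 8 of Ankrd34b and the 3 of Crispld1 none passed in edgeR, with medians of 0.07, 0.05 and -0.15. The nearest were Exosc2, a subunit of the RNA exosome, 14.9 kb from Prdm12 (0.27, adjusted p = 0.647), and Fam151b, 7.97 kb from Ankrd34b (0.11, 0.894). Thbs4, a matrix thrombospondin 309.9 kb from Ankrd34b, had 1.42 (0.144). Spock3 had no tested gene within 500 kb, and its nearest, the secreted protease Tll1, 658 kb away, had 11.3 ± 0.81 CPM in GFP and 7.77 ± 2.99 CPM in Caspase3 (SD, n = 3 each; -0.55 ± 0.24, SE; adjusted p = 0.466).

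The genes whose log2 CPM followed each of the 5 most closely over the 6 libraries were small movers. For Spock3 they were Slc7a1, a cationic amino acid transporter (Pearson r = 0.986), and Marcksl1 (0.985). For Ankrd34b they were Wwc1 (0.986) and Cplx2, a regulator of transmitter release (0.981). For Crispld1 they were Cnep1r1 (0.993) and Fdx1, a mitochondrial electron carrier (0.991). For Rerg they were Lamtor3 (0.994) and the lipoprotein and reelin receptor Vldlr (0.992), and for Prdm12 the potassium channel Kcnh3 (0.999) and Mageh1 (0.994). The log2 fold changes of these 10 genes lay between -0.35 and -0.13, all nearer to 0 than those of the 5, and none passed in edgeR (adjusted p = 0.139 to 0.766). They were taken from 13235 candidates with a mean of at least 1 CPM. With 6 libraries in 2 groups, between 19 and 46 candidates reached r over 0.95 for each of the 5. These names thus describe a shared pattern of levels that rests largely on the groups. For Prdm12 it also rests on 1 to 2 counts per Caspase3 library.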

How the data were processed

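Poly(A) RNA was measured in 6 libraries of piriform cortex, whose titles give group and replicate number. The submitters' processing notes name mm10 and GRCm38 as builds and HISAT2, featureCounts and DESeq2 as tools. Roles, versions and settings are not given in the sources. Per the labels' protocols, the library kit labels the second cDNA strand. For 53715 genes the deposited table gave unnormalised counts, with coordinates and lengths in bases, per the file headers. The deposited FPKM were checked to be these counts over gene length, with 1 scaling constant per library.

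Counts were tested with edgeR 4.0.16 (R 4.3.3), using TMM factors, filterByExpr and the quasi-likelihood F test with group as the only term. The 16721 genes that passed the filter were tested together, with Benjamini-Hochberg adjustment and a threshold of 0.05. All 5 genes passed the filter, Prdm12 only through the GFP libraries, the group where it was high. Each SE is the size of the log2 fold change over the square root of its F statistic. Totals were 20424581 to 24227361 counts in the Caspase3 libraries and 22101015 to 26268377 in the GFP libraries. Counting intervals are exact at 95%. No 2 libraries of a group were alike within counting noise (chi-square per gene 12.6 to 33.1).

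The 5 genes, the lists and the tests were chosen with earlier results of these data known. All 217 listed symbols were found. Names were given to the 5 genes and Gad2, to passing and most abundant list members, to genes ranked beside the 5, to tested neighbours that passed or lay nearest, and to the 2 genes most alike to each by Pearson r in log2 CPM (prior count 2). Relatives and neighbours named beyond this, Klhl13, Xlr3b, Nr4a1 and Bcl11b were chosen after their values were seen. Promoters came from RefSeq and exons from GENCODE M21. Alternatives were DESeq2 1.42.0, limma 3.58.1 (voom, and log2 FPKM with pseudocounts of 0.1 and 1), other scalings and filters, a replicate block and libraries left out. Figures were drawn with Matplotlib 3.10.9.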

Additional observations from a re-analysis of the deposited data

How the results depend on the processing

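The 5 genes kept a negative log2 fold change in all 17 alternatives, but the number past the threshold fell from 5 to 3 with library totals or log2(FPKM + 0.1), to 2 with log2(FPKM + 1), to 1 without both Caspase3 1 and GFP 3, and to between 0 and 2 with 1 library left out. Over all genes, 19 were lower and 255 higher. DESeq2 called 98 and 397, log2(FPKM + 1) 10 and 160, and no filter on low counts 250 and 663. Without both Caspase3 1 and GFP 3, 77 were lower. With 1 library left out, 2 to 33 were lower and 15 to 252 higher, the lowest of both without GFP 2. With replicate numbers as a block, 43 genes were lower against 19, and all 5 genes passed. Same-numbered libraries had correlations of 0.06, 0.18 and 0.03 between their deviations from group means. Caspase3 1 had 0.08 with GFP 3, and the other differently numbered pairs had -0.14 to -0.008. These values do not settle whether the numbers pair samples, and the main test did not use them. Of the relatives and partners, 1 was higher and 0 lower. Limma-voom, log2(FPKM + 0.1) and log2(FPKM + 1) called 0 higher, no filter called 4 higher and 3 lower, and with 1 library left out 0 to 1 were higher and 0 to 1 lower. The causes were not tested. Of 1275 values of 75 named genes under the alternatives, 1136 stayed on the same side of the threshold, 108 lost the call and 31 gained it. Of the 75, 12 genes changed sign in at least 1 alternative, in values past the threshold in neither fit. Depth limits Prdm12 most, at 1 to 2 counts per Caspase3 library.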

Other observations

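The name Rit1, one of the Ras-like relatives of Rerg, stands beside more than 1 identifier in the deposited table. One of these, ENSMUSG00000048251 (chr12:107910403-108003602 on the minus strand, GRCm38), is Bcl11b in GENCODE M21, a zinc-finger transcription factor of striatal and deep-layer cortical neurons. Counted under its GENCODE name, Bcl11b stood at 161.9, 198.9 and 162.8 CPM in the Caspase3 libraries and at 227.1, 244.5 and 245.3 CPM in the GFP libraries. The groups did not overlap, and the log2 fold change was -0.45 ± 0.11 (SE; edgeR adjusted p = 0.102), so it did not pass. GFP 3 did not stand apart for this gene. Taken by name alone, these counts would have been read as those of Rit1, whose own log2 fold change was 0.11.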
